A study of Mus musculus with 7 samples.

Results

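Transcripts of 7 non-classical major histocompatibility complex (MHC) class I genes were examined in tumour-infiltrating CD8 T cells of the mouse: H2-Q4, H2-Q6, H2-Q7, H2-T22, H2-T23, H2-T24 and H2-M3. They were taken by exact gene name from the 53656 gene rows of each count table, and all 7 were found and tested. Each library held messenger RNA of OT1 cells, CD8 T cells with a transgenic receptor for an ovalbumin peptide, purified on CD8 and on CD45.1, a congenic marker. Every tumour was B16-OVA-GP61, a mouse melanoma line carrying ovalbumin and the GP61 epitope of a viral glycoprotein. In 3 libraries the tumours also held SMARTA cells, CD4 T cells whose transgenic receptor recognises GP61, and in 4 libraries they did not. The labels give no age, time point, number of animals or pooling, nor any statement that replicates were separate mice, so a p-value here reflects only how these libraries vary, which may be technical. By its title the study concerned the role of CD4 T cells in how tumour-specific CD8 T cells are reprogrammed, and both groups were compared here for class I transcripts.

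Class I molecules are heavy chains that pair with beta-2 microglobulin at the cell surface. The classical chains H2-K and H2-D show cytosolic peptides to CD8 T cells, whereas the non-classical chains vary little between strains and serve narrower tasks. Qa-1, the product of H2-T23 and the mouse counterpart of HLA-E, displays leader peptides of other class I chains to the CD94/NKG2A receptor of natural killer and CD8 T cells. H2-M3 binds peptides that begin with N-formyl methionine, such as those of bacteria and mitochondria. The H2-Q6 and H2-Q7 products belong to the Qa-2 antigen, H2-Q4 encodes Qb-1, and the H2-T22 product is a ligand of some gamma delta T cell receptors. Interferons and the transactivator NLRC5 are known inducers of class I genes.

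The 7 genes lie on chromosome 17 (GRCm38). H2-Q4 spans chr17:35379617-35385290, H2-Q6 chr17:35424850-35430055 and H2-Q7 chr17:35439155-35443773, all on the plus strand. On the minus strand, H2-T24 spans chr17:36005695-36020560, H2-T23 chr17:36029773-36032855 and H2-T22 chr17:36037128-36042747. H2-M3 lies apart at chr17:37270220-37274484 on the plus strand.

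Several of these genes resemble each other closely, which bears on every count below, since reads matching several places or genes were left out. H2-Q6 and H2-Q7 shared 95.4% of 978 aligned coding bases, with 45 differences. H2-T22 and H2-T10, a relative outside the 7, shared 96.3% of 1137 aligned coding bases, with 42 differences. The stretches of 90 coding bases with the most differences are shown, because reads there tell such neighbours apart; capitals mark the bases that differ within each pair. They are coding bases 66 to 155 of the Qa-2 pair, with 13 differences, and 858 to 947 of the other pair, with 14 differences (GENCODE M21 transcripts, GRCm38).
H2-Q6: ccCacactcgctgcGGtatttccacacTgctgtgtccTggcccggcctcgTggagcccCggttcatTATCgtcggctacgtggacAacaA
H2-Q7: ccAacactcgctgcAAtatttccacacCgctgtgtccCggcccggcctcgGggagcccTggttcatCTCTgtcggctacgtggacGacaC
H2-T22: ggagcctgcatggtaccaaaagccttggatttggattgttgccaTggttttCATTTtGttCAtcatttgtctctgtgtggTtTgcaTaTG
H2-T10: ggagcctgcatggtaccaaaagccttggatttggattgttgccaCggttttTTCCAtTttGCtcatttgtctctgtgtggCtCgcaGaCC

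Sequence sharing was uneven. Of all 50-base windows in its transcripts, the length of 1 read, 53.5% of H2-T22, 36.4% of H2-Q4, 35.0% of H2-Q6 and 26.5% of H2-Q7 also occurred in a transcript of another gene. For H2-T22 the chief partner was H2-T10, with 31.2% of windows, and for H2-Q6 it was H2-Q7, with 13.9%. H2-T23 shared 14.5%, H2-T24 3.17% and H2-M3 0.576% of windows. H2-T24 and H2-M3 were therefore the genes that could be counted with the least ambiguity, while levels of the others are uncertain to the degree that paired reads fell in shared stretches. Exons of other annotated genes also covered 29.4% of the H2-T22 and 19.1% of the H2-Q4 exon bases, and the counting did not use strand.

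Library totals ran from 38092722 to 49438357 counts with SMARTA and from 41341343 to 48572380 without SMARTA, and the lowest count of any of the 7 genes in a library was 360. The 8 CD8 T cell markers summed to 9317 to 10841 CPM (counts adjusted for library size) with SMARTA and 8146 to 9783 CPM without SMARTA. Replicate 1 with SMARTA stood apart: its 7 erythroid markers summed to 4829 CPM, against 9.72 and 214 CPM in the other libraries with SMARTA and 36.7 to 223 CPM without SMARTA. Its 9 macrophage and monocyte markers summed to 224 CPM, against 38.004 and 36.5 CPM in the others with SMARTA. Without SMARTA that sum ran from 87.9 to 209 CPM. The dendritic cell, B cell (642 CPM) and natural killer cell (125 CPM) marker sums of replicate 1 with SMARTA were also the highest of all libraries. Sums over the 4 CD4 T cell markers were 120 to 140 CPM with SMARTA and 39.7 to 96.2 CPM without SMARTA; Cd4 itself averaged 4.40 ± 3.53 CPM (SD, n = 3) and 3.11 ± 2.49 CPM (SD, n = 4). Most of that sum was Cd40lg, with 99.0 ± 12.3 CPM (SD, n = 3) with SMARTA and 47.6 ± 18.7 CPM (SD, n = 4) without SMARTA. The sums of 7 endothelial and fibroblast markers, 143 to 191 CPM with SMARTA and 88.8 to 125 CPM without SMARTA, were nearly all Pecam1, a gene that T cells also express, with 175 ± 33.8 CPM (SD, n = 3) and 88.6 ± 17.3 CPM (SD, n = 4); each of the other markers averaged at most 6.73 CPM in either group. Neutrophil sums were 0.726 to 2.12 CPM with SMARTA and 2.84 to 35.8 CPM without SMARTA. Melanoma marker sums were 6.70 to 9.24 CPM with SMARTA and 6.91 to 68.4 CPM without SMARTA. No single marker gene was called, no marker list had a gene at 0 in all libraries, and the part of such cells in the results was not tested. In bulk RNA, a change in the number of cells of a type and a change in RNA per cell cannot be told apart.

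All 7 genes had higher mean levels with SMARTA than without SMARTA, and 1 of them, H2-T24, rose past the test. H2-T24 was 2.47-fold higher, H2-T22, H2-M3 and H2-Q4 had log2 fold changes of 0.69, 0.68 and 0.72, and H2-T23, H2-Q6 and H2-Q7 had 0.44, 0.35 and 0.36. Only for H2-T24, H2-T22 and H2-M3 of the 7 did every library with SMARTA exceed every library without SMARTA. Genes were tested with edgeR's quasi-likelihood test and called at a Benjamini-Hochberg adjusted p under 0.05 over 15896 genes. By that rule 3.15% of all tested genes were called, 1.52% higher and 1.63% lower, and 8.73% had all libraries with SMARTA above all without SMARTA. A positive fold change was seen in 49.8% of tested genes and in 7 of 7 here, with a median log2 fold change of 0.68, against -0.003 over all tested genes. By unadjusted p under 0.05, 3 of the 7 stood out, against 18.6% of all tested genes. Some of the 7 are near-identical in sequence, so they are not 7 independent observations.

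**Figure D1:**
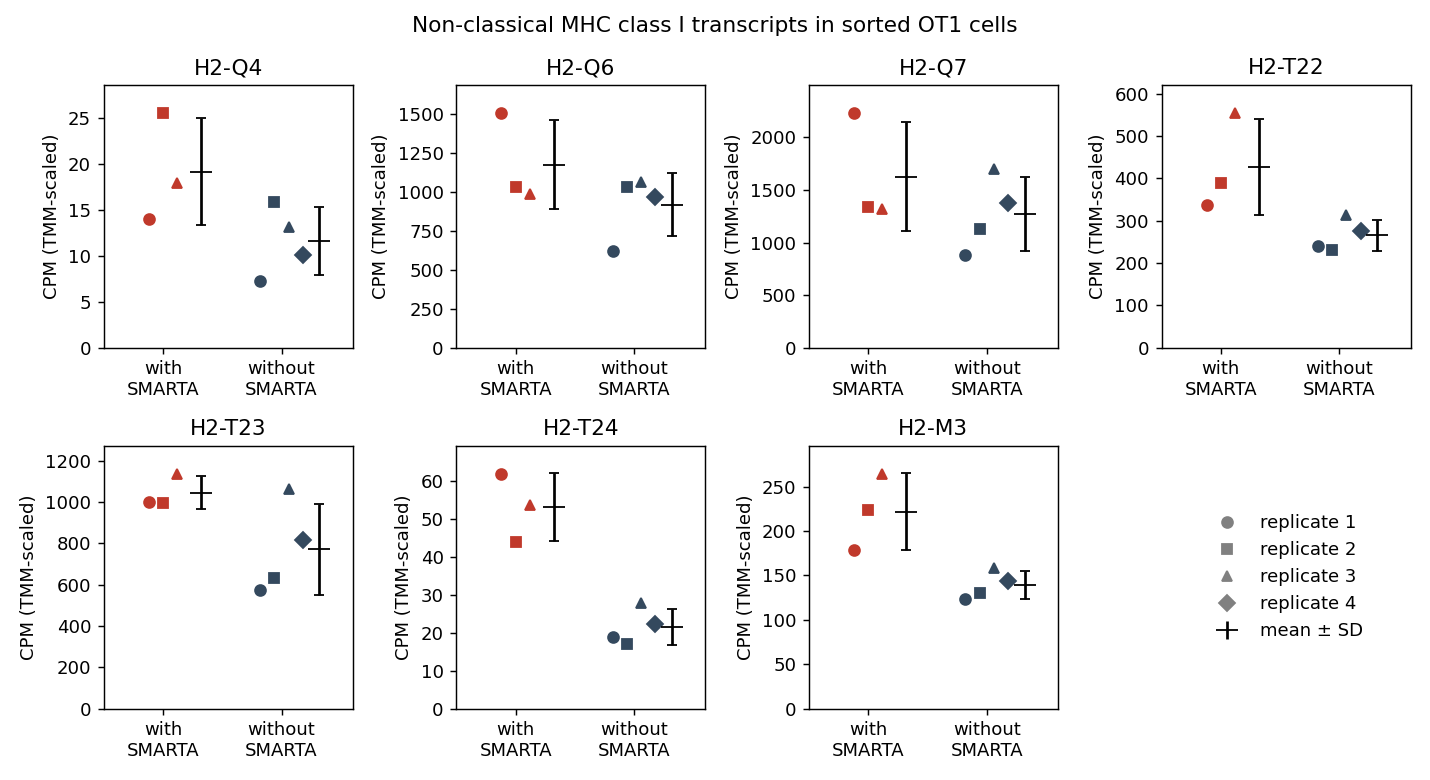
Level of each gene in TMM-scaled CPM (vertical axis, from 0) in the 3 libraries with SMARTA (red, left) and the 4 without SMARTA (dark, right); symbols give the replicate number, and the black bar is the mean ± SD. H2-T24, H2-T22 and H2-M3 show no overlap between groups, while replicate 1 with SMARTA lies far above the rest for H2-Q6 (1503 CPM) and H2-Q7 (2229 CPM).

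H2-T24 lies beside H2-T23 in the T region and has the sequence least like the rest, with 61.5% to 65.4% coding identity to the other class I genes compared. It had 61.9, 43.9 and 53.7 CPM in the libraries with SMARTA, and 18.8, 17.1, 27.8 and 22.3 CPM in those without SMARTA. The lowest library with SMARTA stood well clear of the highest without SMARTA. Means were 53.2 ± 9.01 CPM (SD, n = 3) with SMARTA and 21.5 ± 4.71 CPM (SD, n = 4) without SMARTA, a log2 fold change of 1.31 ± 0.25 (SE) with an edgeR adjusted p of 0.0358. The fold change stayed between 1.17 and 1.45 when any 1 library was left out, but the call was kept in 1 of 7 such fits, that without replicate 1 with SMARTA (1.17, adjusted p 0.0356); in the other 6 the edgeR adjusted p reached up to 0.112. Against its neighbour H2-T23, H2-T24 had 6.18, 4.40 and 4.73 counts per 100 H2-T23 counts with SMARTA, and 3.27, 2.71, 2.61 and 2.74 without SMARTA. This ratio, which does not depend on scaling between libraries, did not overlap between groups. It contains the called gene itself, so it is no separate evidence for the call. How often ratios of other genes separate the groups was not counted. Per 100 H2-K1 counts there were 0.808, 0.677 and 1.35 H2-T24 counts with SMARTA, and 0.952, 0.474, 0.472 and 0.557 without SMARTA. That second ratio overlapped between groups.

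H2-T22 had 336, 389 and 554 CPM with SMARTA, and 239.8, 232, 313 and 276 CPM without SMARTA. Groups did not overlap, although the gap between replicate 1 with SMARTA and replicate 3 without SMARTA was small. Means were 427 ± 114 CPM (SD, n = 3) with SMARTA and 265 ± 37.2 CPM (SD, n = 4) without SMARTA, and the log2 fold change of 0.69 ± 0.22 (SE) did not pass the edgeR test (adjusted p 0.131). It passed without replicate 1 with SMARTA (0.81, edgeR adjusted p 0.0497) and by DESeq2 (adjusted p 0.0496), both close to the threshold. It did not pass without any of the other 6 libraries, and without replicate 3 with SMARTA it was 0.43 (edgeR adjusted p 0.339). Its near-identical relative H2-T10 averaged 56.7 ± 19.2 CPM (SD, n = 3) with SMARTA and 46.4 ± 10.8 CPM (SD, n = 4) without SMARTA, with a log2 fold change of 0.29 ± 0.28 (SE; edgeR adjusted p 0.657). Per 100 H2-T22 counts there were 13.0, 12.2 and 14.2 H2-T10 counts with SMARTA, and 17.6, 16.2, 19.8 and 15.9 without SMARTA. The H2-T10 share was thus lower in every library with SMARTA, within the limits that shared reads set. For this ratio too, how often ratios of other genes separate the groups was not counted. Adding the deposited counts of H2-T22 and H2-T10 gave 0.63 on the log2 scale (edgeR adjusted p 0.170). Reads matching both genes were already left out of both counts, so the sum does not bring them back.

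H2-M3, which presents formylated peptides, had 178, 223 and 264 CPM with SMARTA, and 124, 130.02, 158 and 144 CPM without SMARTA. The 4 libraries without SMARTA lay close together and all below those with SMARTA. Means were 222 ± 43.1 CPM (SD, n = 3) with SMARTA and 139 ± 15.5 CPM (SD, n = 4) without SMARTA, and the log2 fold change was 0.68 ± 0.19 (SE) with an edgeR adjusted p of 0.0994, above the threshold. Without replicate 1 with SMARTA the value was 0.80 and passed (edgeR adjusted p 0.0360), as it did by DESeq2 with all libraries (adjusted p 0.0213). Without any of the other 6 libraries it did not pass, and the lowest value was 0.51, without replicate 3 with SMARTA (edgeR adjusted p 0.283).

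H2-T23, the gene of Qa-1, had 1001, 997 and 1136.5 CPM with SMARTA, and 574, 631, 1065 and 815 CPM without SMARTA. The libraries with SMARTA were alike, and those without SMARTA were spread widely, with replicate 3 inside the range of the other group. The log2 fold change was 0.44 ± 0.23 (SE; edgeR adjusted p 0.359) from means of 1045 ± 79.2 CPM (SD, n = 3) with SMARTA and 771 ± 221 CPM (SD, n = 4) without SMARTA. Leaving out replicate 1 with SMARTA gave 0.46 (edgeR adjusted p 0.327). Of the libraries without SMARTA, leaving out replicate 1 gave 0.29 (edgeR adjusted p 0.608) and leaving out replicate 3 gave 0.63 (edgeR adjusted p 0.174).

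The Qa-2 genes had the highest levels of the 7 in CPM. H2-Q7 had 2229, 1338 and 1314 CPM with SMARTA, and 883, 1133, 1700.1 and 1374 CPM without SMARTA. H2-Q6 had 1503, 1029 and 987 CPM with SMARTA, and 618, 1028, 1060.2 and 965 CPM without SMARTA. Both overlapped between groups, with replicate 1 the highest library with SMARTA and replicate 1 the lowest without SMARTA. Means of H2-Q7 were 1627 ± 522 CPM (SD, n = 3) with SMARTA and 1273 ± 348 CPM (SD, n = 4) without SMARTA, and those of H2-Q6 were 1173 ± 287 and 918 ± 204 CPM. Their log2 fold changes were 0.36 ± 0.28 (SE; edgeR adjusted p 0.561) for H2-Q7 and 0.35 ± 0.24 (SE; edgeR adjusted p 0.497) for H2-Q6. Without replicate 1 with SMARTA they came to 0.049 for H2-Q7 (edgeR adjusted p 0.939) and 0.12 for H2-Q6 (edgeR adjusted p 0.825). Without replicate 1 of the libraries without SMARTA they came to 0.175 for H2-Q7 (edgeR adjusted p 0.822) and 0.162 for H2-Q6 (edgeR adjusted p 0.783). The difference of the pair thus rested largely on both replicates numbered 1. There were 67.4, 76.9 and 75.1 H2-Q6 counts per 100 H2-Q7 counts with SMARTA, and 69.9, 90.7, 62.4 and 70.2 without SMARTA, so the balance of the pair overlapped between groups.

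H2-Q4 was the least abundant, with 14.0, 25.5 and 17.9 CPM with SMARTA, and 7.29, 15.9, 13.2 and 10.104 CPM without SMARTA. Of the 3 libraries with SMARTA, 2 exceeded every library without SMARTA. Means were 19.1 ± 5.83 CPM (SD, n = 3) with SMARTA and 11.6 ± 3.71 CPM (SD, n = 4) without SMARTA, a log2 fold change of 0.72 ± 0.34 (SE) that did not pass (edgeR adjusted p 0.310). Without replicate 1 with SMARTA it was 0.89 (edgeR adjusted p 0.202), and without replicate 2 with SMARTA it was 0.46 (edgeR adjusted p 0.663).

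**Figure D2:**
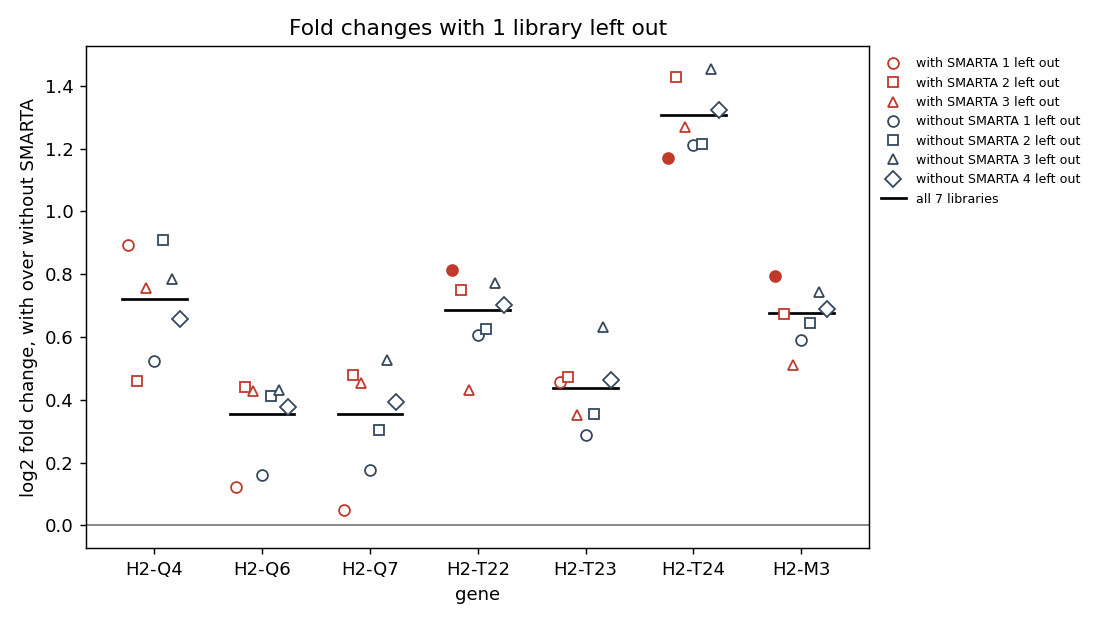
Log2 fold change with over without SMARTA (vertical axis) of each gene with all 7 libraries (black line) and with 1 library left out (red, a library with SMARTA; dark, a library without SMARTA; symbols give the replicate; filled where the edgeR adjusted p was under 0.05). All values lie above 0; H2-T24 ranges from 1.17 to 1.45 and H2-Q7 from 0.049 to 0.53.

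Compared per kilobase of annotated exon, the order of mean levels was the same in both groups. With SMARTA the means were 562 CPM per kb for H2-Q6, 382 for H2-Q7, 362 for H2-T23, 154 for H2-M3, 125 for H2-T22, 24.4 for H2-T24 and 7.37 for H2-Q4. Without SMARTA they were 440.1, 298, 267, 96.6, 77.7, 9.85 and 4.47 CPM per kb in the same order. The highest and lowest gene lay 76.3-fold apart with SMARTA and 98.4-fold apart without SMARTA. Ranges over libraries overlapped in both groups for H2-Q6 and H2-Q7, for H2-Q7 and H2-T23, and for H2-M3 and H2-T22. They did not overlap between H2-T23 and H2-M3, between H2-T22 and H2-T24, or between H2-T24 and H2-Q4. Compared within each library, H2-Q6 exceeded H2-Q7 and H2-M3 exceeded H2-T22 in 7 of 7, whereas H2-Q7 exceeded H2-T23 in 5 of 7. Exon length here joins all annotated models of a gene, such as 4265 bases for H2-Q7, and therefore lowers the value of genes with long retained introns. It also includes stretches whose reads were left out as shared, which can lower the value of genes with much shared sequence. H2-T22 shared 53.5% of windows and H2-M3 0.576%, so the order of these genes is uncertain. As a share of counts, the 7 genes took 0.508%, 0.393% and 0.386% of a library with SMARTA and 0.257%, 0.354%, 0.440% and 0.369% of a library without SMARTA.

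The 7 genes did not vary as a block over the libraries. H2-Q6, H2-Q7 and the classical genes H2-K1 and H2-D1 were highest, among libraries with SMARTA, in replicate 1, as was H2-T24. H2-T22, H2-T23 and H2-M3, along with B2m and Nlrc5, were highest in replicate 3. After each gene was centred on its own mean over the 7 libraries, H2-T22 and H2-M3 differed by a root mean square of 0.083 in log2 CPM. This was the smallest difference of any gene pair among the 7, and H2-Q6 and H2-Q7 followed with 0.159. H2-Q4 and H2-T24 were the farthest apart, at 0.589.

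**Figure D3:**
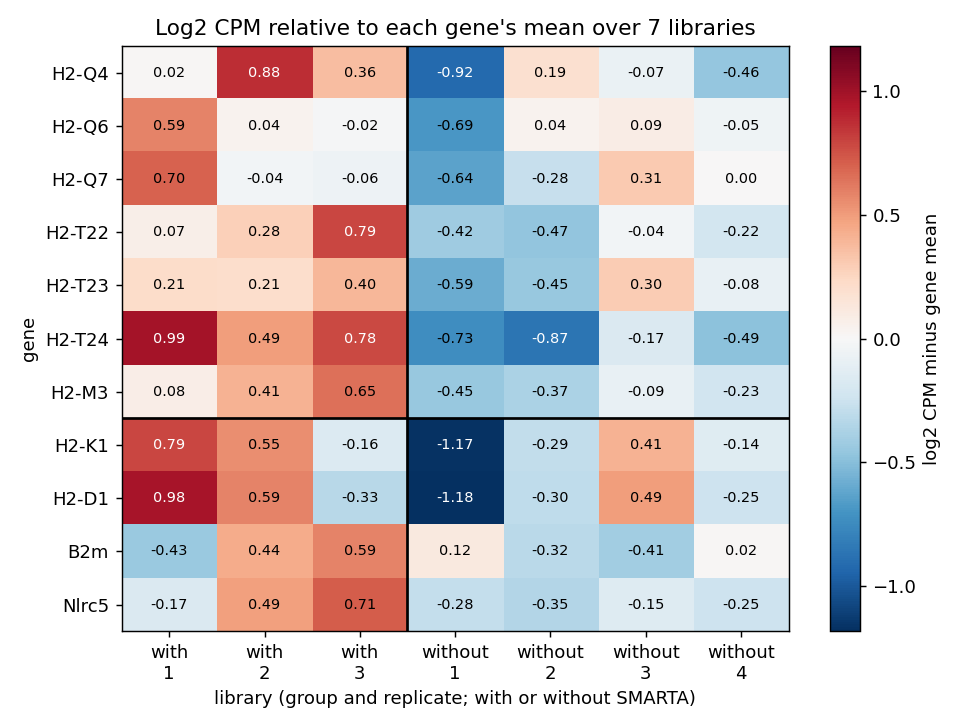
Log2 CPM of each gene (rows; the 7 non-classical genes above the line, classical chains, B2m and Nlrc5 below it) minus its mean over the 7 libraries, in libraries with SMARTA (left) and without SMARTA (right). H2-T22 and H2-M3 reach 0.79 and 0.65 in replicate 3 with SMARTA, whereas H2-Q6 and H2-Q7 peak at 0.59 and 0.70 in replicate 1 with SMARTA.

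Neighbours were sought among 7912 genes whose log2 CPM averaged at least 3, leaving out predicted, clone-based and mitochondrial gene names. The nearest to each of the 7 by the same measure were as follows, as a description over 7 libraries that share scaling. The gene nearest to H2-T22 was H2-M3, ahead of Atxn7l1 (0.097) and Rrnad1 (0.099). For H2-M3 the nearest were Atxn7l1 (0.070), H2-T22 (0.083) and Rrnad1 (0.097). H2-T24 was nearest to Abhd14b (0.127), Ly6c2 (0.127) and Tspan14 (0.157). H2-T23 was nearest to Lpin1 (0.101), a phosphatidate phosphatase, Cyfip2 (0.128) and Slc17a5 (0.136). The Qa-2 genes had other neighbours: Tle3 (0.064), Mul1 (0.077) and Sugp1 (0.095) for H2-Q6, and Fbxw5 (0.044), Shkbp1 (0.064) and Vasp (0.093) for H2-Q7. H2-Q4 was nearest to Adamts10 (0.113), Pitpnc1 (0.118) and Jak1 (0.135), a kinase of cytokine receptors. The median difference over all genes compared ran from 0.510 for H2-Q6 to 0.769 for H2-T24. Ly6c2 has a near-identical relative in Ly6c1 and its counts are uncertain.

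Promoter windows of 250 bases before to 50 after the start were given for 6 of the 7 genes in RefSeq (GRCm38.p6), all but H2-T24. They were searched on both strands for short motifs known from class I genes, chosen with these sequences in view. A core of the interferon response element, TTTCNNTT, was found in 6 of 6 windows and in 23.9% of 32807 promoter windows of all genes. An X2-like motif of the class I enhanceosome, TGATGAC, was found in 5 of 6 windows, all but that of H2-T23, and in 3.22% of all windows. A kappaB-like motif, GGGATTNCC, was found in 3 of 6 windows, those of H2-Q4, H2-Q6 and H2-Q7, and in 0.939% of all windows. The Y-like motif CCAAT was found in 6 of 6 and in 37.4% of all windows. Windows of the classical genes H2-K1 and H2-D1 also held the interferon response, kappaB-like and Y-like motifs. The X2-like motif was found for H2-D1 and not for H2-K1, so these motifs are not particular to the non-classical genes. Likeness between windows was not measured, and they need not be independent observations. The windows of H2-T22 and H2-M3, the pair with the most similar profile, are shown with that of H2-Q7, whose profile differed; capitals mark the matches.
H2-T22 promoter (chr17:36042693-36042992, minus strand): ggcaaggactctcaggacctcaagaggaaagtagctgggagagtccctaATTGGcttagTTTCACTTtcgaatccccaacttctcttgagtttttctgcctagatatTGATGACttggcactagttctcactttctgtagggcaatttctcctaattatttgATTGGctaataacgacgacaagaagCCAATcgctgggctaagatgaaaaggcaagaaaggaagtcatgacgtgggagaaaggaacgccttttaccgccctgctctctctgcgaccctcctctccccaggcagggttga
H2-M3 promoter (chr17:37269984-37270283, plus strand): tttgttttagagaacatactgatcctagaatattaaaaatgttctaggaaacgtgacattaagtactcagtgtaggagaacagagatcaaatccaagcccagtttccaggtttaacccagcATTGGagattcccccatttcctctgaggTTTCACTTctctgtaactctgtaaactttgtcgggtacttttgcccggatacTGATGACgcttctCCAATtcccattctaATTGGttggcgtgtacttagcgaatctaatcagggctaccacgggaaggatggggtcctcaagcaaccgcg
H2-Q7 promoter (chr17:35438905-35439204, plus strand): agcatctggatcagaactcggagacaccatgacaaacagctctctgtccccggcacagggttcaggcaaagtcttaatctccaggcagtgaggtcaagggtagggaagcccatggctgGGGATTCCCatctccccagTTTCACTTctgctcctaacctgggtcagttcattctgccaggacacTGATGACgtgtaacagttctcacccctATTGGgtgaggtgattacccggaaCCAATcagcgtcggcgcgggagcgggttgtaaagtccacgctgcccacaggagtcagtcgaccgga

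In these windows H2-T22 and H2-M3 hold the interferon response and X2-like motifs but no kappaB-like motif. The H2-Q7 window holds all of these. The H2-Q4 window held the same motifs as H2-Q7, while its profile lay nearer to H2-M3 (root mean square difference 0.359) than to H2-Q7 (0.553). H2-T23 lacked the X2-like and kappaB-like motifs and lay 0.221 from H2-T22 and 0.215 from H2-M3. A link between motifs and profiles was not tested. The matches are letters in a window and no measurement of binding.

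The classical chains and the peptide-loading machinery showed no called gene among 16 tested by edgeR, 2 of which had an unadjusted p under 0.05, and DESeq2 and limma-voom also called 0. The median log2 fold change was 0.24, and 12 of 16 were positive. H2-K1 had 7663, 6483 and 3964 CPM with SMARTA, and 1970.4, 3615, 5885 and 4004 CPM without SMARTA. H2-D1 had 9151, 6991 and 3699.7 CPM with SMARTA, and 2046, 3766, 6544 and 3914 CPM without SMARTA. Both overlapped between groups, and log2 fold changes were 0.64 ± 0.36 (SE; edgeR adjusted p 0.391) for H2-K1 and 0.70 ± 0.40 (SE; edgeR adjusted p 0.412) for H2-D1. B2m, the light chain shared by all these molecules, averaged 6136 ± 2073 CPM (SD, n = 3) with SMARTA and 4664 ± 819 CPM (SD, n = 4) without SMARTA, with a log2 fold change of 0.40 ± 0.26 (SE; edgeR adjusted p 0.477). The smallest p in this list belonged to Tap2, a subunit of the peptide transporter, at 0.48 on the log2 scale (edgeR adjusted p 0.177), and Calr, the chaperone calreticulin, at -0.49 (edgeR adjusted p 0.179). The 7 non-classical genes made up 24.05%, 23.1% and 36.1% of their own counts plus those of H2-K1 and H2-D1 with SMARTA, and 38.02%, 30.2%, 25.9% and 31.3% without SMARTA, ranges that overlapped.

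The other non-classical and class I-like genes comprised 19 entries, of which 10 passed the filter on low counts and 0 were called by edgeR; 5 had an unadjusted p under 0.05, DESeq2 called 1 and limma-voom 0, and edgeR called 1 without replicate 1 with SMARTA. Their median log2 fold change was 0.50, with 6 positive. H2-Q5 averaged 235 ± 48.0 CPM (SD, n = 3) with SMARTA and 143 ± 49.2 CPM (SD, n = 4) without SMARTA (log2 fold change 0.72, edgeR adjusted p 0.269). Cd1d1, which presents lipids to natural killer T cells, had 62.7, 36.1 and 53.98 CPM with SMARTA, and 34.99, 34.4, 26.7 and 24.7 CPM without SMARTA (log2 fold change 0.75 ± 0.26, SE; edgeR adjusted p 0.162). Fcgrt, the neonatal Fc receptor chain, had 88.8, 15.8 and 40.9 CPM with SMARTA, and 8.51, 9.90, 19.2 and 9.18 CPM without SMARTA (log2 fold change 2.05, edgeR adjusted p 0.0824). Its highest value fell in replicate 1 with SMARTA, the library with the highest macrophage, monocyte and dendritic cell marker sums. Replicate 3 with SMARTA, with 40.9 CPM of Fcgrt, had the lowest macrophage and monocyte sum of all libraries, 36.5 CPM. A link between Fcgrt and such cells was not tested.

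Of 16 tested regulators of class I genes, 2 rose and none fell, with a median log2 fold change of 0.48. Irf9, the DNA-binding subunit of the type I interferon factor, averaged 448 ± 79.4 CPM (SD, n = 3) with SMARTA and 200.2 ± 39.1 CPM (SD, n = 4) without SMARTA (log2 fold change 1.16 ± 0.22, SE; edgeR adjusted p 0.0352). Stat2, its partner, averaged 240.0 ± 54.7 CPM (SD, n = 3) with SMARTA and 85.1 ± 30.8 CPM (SD, n = 4) without SMARTA (log2 fold change 1.496 ± 0.29, SE; edgeR adjusted p 0.0399). Nlrc5, the class I transactivator, had 455, 717 and 838 CPM with SMARTA, and 419.8, 401, 461 and 431 CPM without SMARTA. Replicate 1 with SMARTA lay within the range without SMARTA and the others far above it (log2 fold change 0.65 ± 0.22, SE; edgeR adjusted p 0.153). Irf1, which binds interferon response elements, came to 0.82 ± 0.22 (SE; edgeR adjusted p 0.0778) on the log2 scale. With 1 library left out, the count of 2 became 5 without replicate 1 with SMARTA, 1 without replicate 2 or 3 without SMARTA, and 0 without any of the other 4 libraries.

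**Figure D4:**
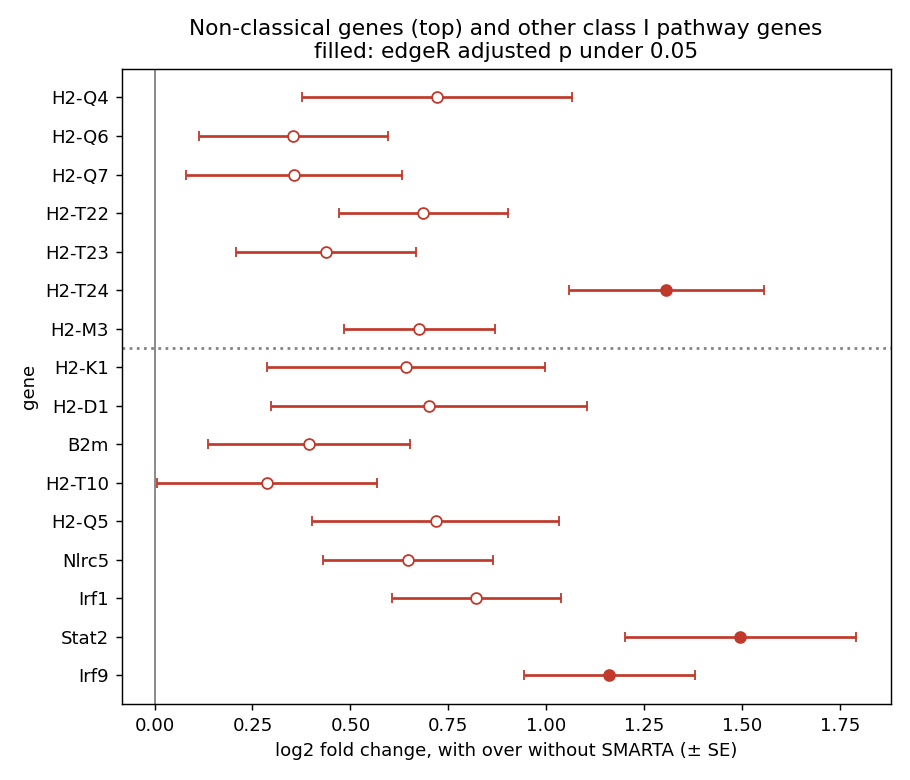
Log2 fold change with over without SMARTA (horizontal axis, ± SE) of the 7 non-classical genes (top) and of classical chains, B2m, relatives and regulators (below the dotted line); filled points passed an edgeR adjusted p of 0.05. H2-T24 (1.31), Stat2 (1.496) and Irf9 (1.16) passed, and every gene shown has a positive value.

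Among 24 interferon-stimulated genes, a list on which earlier results from these libraries were known, 18 rose and 0 fell, with a median log2 fold change of 2.23. Irf7, a regulator of interferon genes, was higher by 1.90 on the log2 scale (edgeR adjusted p 0.00820), Oas3, a sensor of double-stranded RNA, 2.08 (edgeR adjusted p 0.00825), and the ubiquitin-like Isg15 2.18 (edgeR adjusted p 0.00957). Oasl1 had 2.81 (edgeR adjusted p 0.0109) and Ifit1, which binds viral RNA, 3.97 (edgeR adjusted p 0.0261). The count of 18 depended on single libraries: it was 20 without replicate 1 with SMARTA, 4 without replicate 2 and 6 without replicate 3 with SMARTA. It was 5, 14, 9 and 4 without replicate 1, 2, 3 or 4 of the libraries without SMARTA.

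On the receptor side, 14 of 16 genes for receptors of class I and class I-like molecules were tested, 0 rose and 1 fell by edgeR, with a median log2 fold change of -0.14; 5 had an unadjusted p under 0.05, and DESeq2 called 1 higher and 3 lower. Klrd1 and Klrc1, which encode the CD94 and NKG2A chains that bind Qa-1, had log2 fold changes of -0.08 ± 0.26 (SE; edgeR adjusted p 0.912) and 0.18 ± 0.59 (SE; edgeR adjusted p 0.915). Klrc1 had 256, 1634 and 1789 CPM with SMARTA, and 988, 1083, 575 and 1688 CPM without SMARTA, so its lowest and highest library both had SMARTA. Both signs turned under some alternatives, and no direction is given. Cd8a, the coreceptor chain for class I, came to -0.21 on the log2 scale (edgeR adjusted p 0.715). Cd160, a receptor on cytotoxic cells, fell: it had 163, 130.05 and 87.0 CPM with SMARTA, and 451, 358, 364 and 460.3 CPM without SMARTA (log2 fold change -1.69 ± 0.25, SE; edgeR adjusted p 0.0175). This count of 1 lower gene was 2 with no filter on low counts and 3 with a filter on CPM. It became 0 without replicate 2 with SMARTA and without replicate 1 or 4 of the libraries without SMARTA. Without replicate 1 with SMARTA, 1 receptor gene was called higher.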

How the data were processed

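Cells were sorted into Trizol, and SMART-seq V4 amplification (12 cycles) from 6 to 15 ng of RNA was followed by sequencing of 50 bases from both ends, per the labels' protocols. The submitters' processing notes name STAR 2.6.0c, featureCounts 1.6.2 and GRCm38.p6. Per the file headers, the deposited values are raw counts of read pairs per gene name over exons of GENCODE M17, without strand, leaving out reads that match several places or genes.

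Groups came from the sample titles. In R 4.3.3, edgeR 4.0.16 compared 3 libraries with SMARTA and 4 without SMARTA in a robust quasi-likelihood fit, two-sided, after filterByExpr (minimum count 10, minimum total 15) and TMM scaling, adjusting over all 15896 tested genes. Log2 fold changes are with over without SMARTA; standard errors follow from the fold change and F. CPM are TMM-scaled for genes and per library total for marker sums. The coefficient of variation between libraries was 0.529. Alternatives were other scalings and filters, DESeq2 1.42.0, limma-voom (limma 3.58.1), a fit without robust estimation, a threshold of 0.01, a replicate block and each library left out; summing near-identical pairs was chosen after seeing the data. Coding sequences from GENCODE M21 were aligned with Biopython 1.88. The fits were also run on simulated data, with outcomes not given here, and no result above rests on that run. Libraries of a group differed far beyond sampling noise (chi-square divided by its degrees of freedom, 93.5 to 444), and none was treated as a duplicate. Separately amplified libraries of the same RNA could also differ in this way, so it does not show that replicates were separate mice.

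The genes and lists were chosen with earlier results of these data known. Named are the 7 genes, 11 fixed pathway genes (1 is not reported here), up to 4 called genes per list by smallest p (2 genes for a list with no call), and the 3 most similar genes for each of the 7. H2-T10, H2-Q5, Cd4, Cd40lg and Pecam1 are named outside this rule, after their values were seen.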

Additional observations from a re-analysis of the deposited data

Results flagged for a closer look

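Among 18 genes checked in the group of 4 libraries without SMARTA, 1 library stood far from the others for 1 gene. Ifit1 had 43.9 CPM in replicate 2 without SMARTA, against 19.7, 23.1 and 21.3 CPM in the other libraries without SMARTA, while the libraries with SMARTA had 71.6, 476 and 721 CPM. Chance gives such a mark in about 5% of groups, so 1 mark among 18 genes is about what chance gives. None of the 7 non-classical genes was marked in this way.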

How the results depend on the processing

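Of the 7 non-classical genes, 1 was called; DESeq2 called 3, and a threshold of 0.01 left 0. Over all genes the 500 calls became 1741 by DESeq2 and 7 at 0.01, and over the gene lists the 21 calls became 3 at 0.01. With 1 library left out, calls among the 7 ranged from 0 to 3, and those in the lists from 4 to 28. Over all genes they numbered 907, 37 and 53 without replicate 1, 2 or 3 with SMARTA, and 65, 398, 98 and 17 without replicate 1, 2, 3 or 4 of the libraries without SMARTA.

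The replicate numbers were not shown to pair libraries (correlations of deviations -0.139, 0.026 and -0.274). With them as a replicate block, edgeR called 0 of all genes, 0 of the 7 and 0 list genes, with 1631, 3 and 28 at an unadjusted p under 0.05 and 2 residual degrees of freedom; H2-T24 then came to 1.34 on the log2 scale (edgeR adjusted p 0.343). Over 125 values of the 7 genes under all alternatives, none changed sign, 8 lost and 4 gained a call. The sign of Klrc1 turned with limma-voom (-0.18), and its log2 fold change ranged from -0.195 to 0.635 with 1 library left out; that of Klrd1 turned with the block (0.049) and ranged from -0.289 to 0.101. The cause was not tested. Plain library totals shifted the median of all genes to -0.158, with 163 higher and 398 lower calls against 241 and 259 with TMM, and the 7 genes kept positive values. With 3 and 4 libraries in the groups, a missed call does not show that a gene did not differ.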
